A study of Homo sapiens with 8 samples.

Results

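The citrate cycle enzymes were followed as 9 genes: CS, IDH2, IDH3A, IDH3B, OGDH, SUCLG1, SDHA, FH and MDH2. They were taken by symbol from a table of 58884 genes, and all 9 were found and were among the 17194 genes with a mean of at least 10 normalized counts that were tested. The RNA came from C4-2, an established human line of castration-resistant prostate cancer derived from LNCaP. There were 4 libraries from cells given 1 µM DTHIB for 48 h and 4 from cells given the solvent DMSO alone for the same time. DTHIB, also named E12, is labelled as inhibiting HSF1 directly; HSF1 switches on heat shock genes when proteins misfold. Both groups are the same line with no genetic change between them, so the results describe 1 line, 1 dose and 1 time. The labels number the replicates but do not say whether they were separate cultures, and the p-values below therefore rest on a spread between libraries that may be technical.

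The citrate cycle runs in the mitochondrial matrix. It joins acetyl-CoA to oxaloacetate to make citrate, oxidizes the carbon to carbon dioxide, and passes electrons to NADH and to ubiquinone for the respiratory chain. Normal prostate epithelium is known for secreting citrate in place of oxidizing it, and prostate cancer cells are known for oxidizing more of it. Intermediates also leave the cycle for lipid and amino acid synthesis and are refilled by reactions called anaplerosis.

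Sequence just upstream of genes for 3 of the enzymes is shown because they stand at different points of the comparison below: FH fell in DTHIB libraries, CS fell by less, and MDH2 did not pass the test. The windows are RefSeq's (GRCh38.p14), limited to the bases before the start of the GENCODE release 29 gene, and 8 of the 9 genes were matched in the table. Capitals mark matches on either strand to CCAAT, to GGGCGG (the GC box, bound by Sp factors) or to CCGGAAG (a site of ETS factors such as GABPA).
FH, chr1:241519762-241520005, minus strand: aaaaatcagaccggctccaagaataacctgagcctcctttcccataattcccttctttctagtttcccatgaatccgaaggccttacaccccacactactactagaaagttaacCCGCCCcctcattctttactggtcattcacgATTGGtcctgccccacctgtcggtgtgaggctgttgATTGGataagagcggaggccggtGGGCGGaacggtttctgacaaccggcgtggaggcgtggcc
CS, chr12:56300393-56300580, minus strand: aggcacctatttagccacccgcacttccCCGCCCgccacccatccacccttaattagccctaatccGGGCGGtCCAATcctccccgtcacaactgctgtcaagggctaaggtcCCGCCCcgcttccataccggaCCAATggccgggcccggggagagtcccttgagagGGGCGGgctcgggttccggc
MDH2, chr7:76047856-76048050, plus strand: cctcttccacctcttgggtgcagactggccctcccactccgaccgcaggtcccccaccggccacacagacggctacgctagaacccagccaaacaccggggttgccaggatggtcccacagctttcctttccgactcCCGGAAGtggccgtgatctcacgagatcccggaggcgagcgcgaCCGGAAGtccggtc
Distances below are counted in bases before the RefSeq start to the far end of a match. FH had CCAAT boxes at 105 and 69 and GC boxes at 136 and 46. MDH2 had ETS sites at 113 and 69, and CS had CCAAT boxes at 177 and 116. Over the 250 bases before the start, CCAAT was found in 2 of the 8 matched genes, against 32% of 35116 windows of that length. GGGCGG was found in 3 of 8, against 42.6%, and CCGGAAG in 2 of 8 (IDH3B and MDH2), against 8.52%. TGCGCA, the core of the NRF1 site, was in IDH3B and SDHA, against 6.89% of windows, and SDHA held 4 copies. TTCNNGAA, a pair of inverted heat shock units, was in IDH2 and SUCLG1, against 6.62%. Those 2 windows, and that of IDH3A, which is among the 3 with GGGCGG, lie inside the longer GENCODE genes and are not printed. The RefSeq starts of IDH2 and SUCLG1 lie 1883 and 765 bases inside the GENCODE gene. Their TTCNNGAA matches are therefore downstream of the GENCODE start. AAGGTCA (a site of estrogen-related receptors), CACGTG (the E-box bound by MYC) and TTGCATC (a site of ATF4 with its partners) were in none of the 8 windows. Both strands were searched, the letters of different motifs were allowed to overlap, and a match describes the letters only.

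In DTHIB libraries 8 of the 9 enzymes fell, and 1, MDH2, did not pass the test. Their log2 fold changes ran from -0.68 for IDH2 to 0.01 for MDH2, with a median of -0.28, while the median of all tested genes was -0.01. Of all tested genes 33.7% fell and 31% rose (limma, Benjamini-Hochberg adjusted p under 0.05). The values of the 2 groups did not overlap for any of the 8, and 30.8% of all tested genes had every DTHIB value below every DMSO value. The sizes were moderate: the central range of all tested genes, from the 5th to the 95th percentile, was -0.92 to 0.90, and 7.64% of tested genes had a lower log2 fold change than IDH2. In bulk RNA such as this, fewer cells carrying a transcript and less transcript per cell cannot be told apart.

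**Figure D1:**
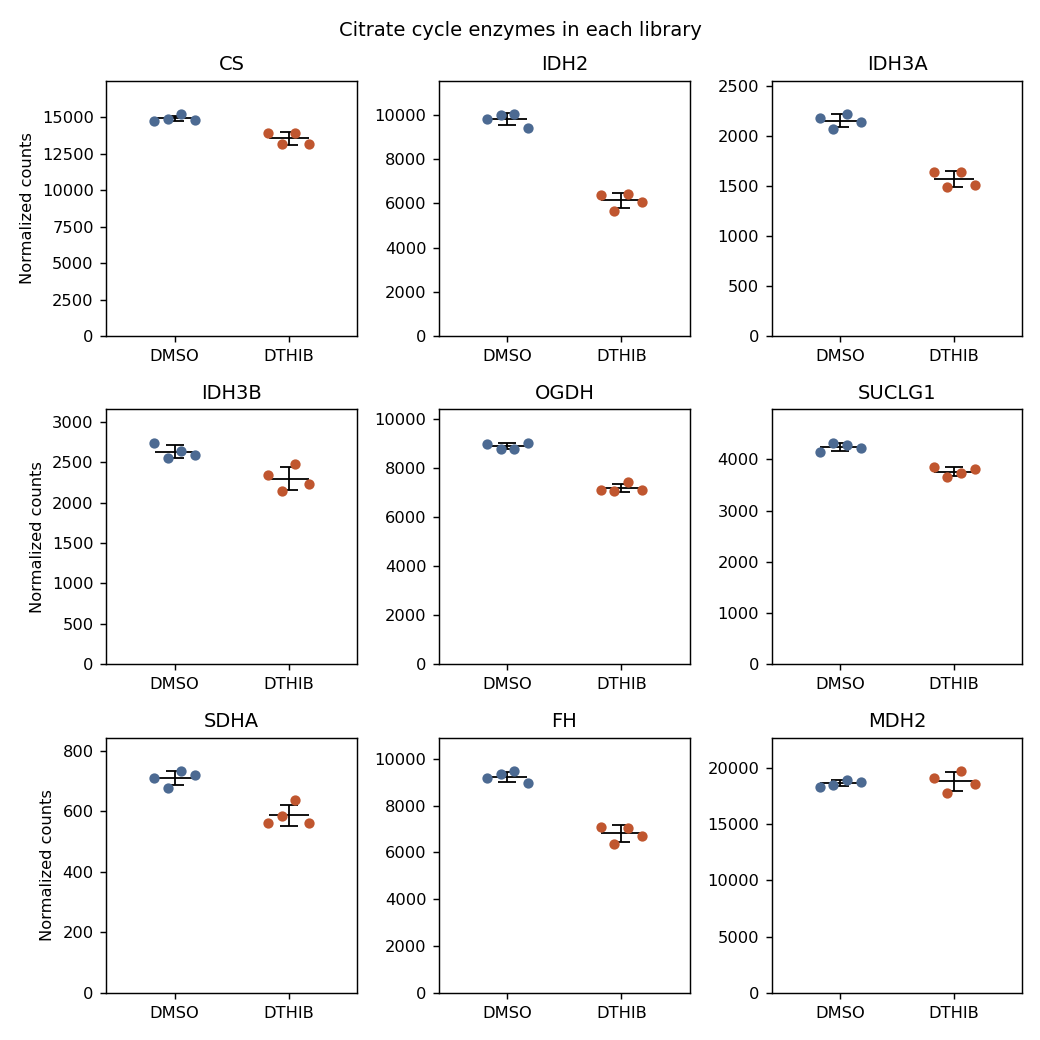
Normalized counts of the 9 citrate cycle enzymes in the 4 DMSO (blue) and 4 DTHIB (orange) libraries. Each point is 1 library, the long line is the mean and the bar is the SD; each axis starts at 0. The groups are separate for 8 enzymes and overlap for MDH2.

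Citrate synthase, encoded by CS (chr12:56271699-56300392), makes citrate from acetyl-CoA and oxaloacetate and is widely used as a measure of mitochondrial content. It stood at 14736, 14897, 15197 and 14821 normalized counts in the DMSO libraries and at 13938, 13177, 13902 and 13185 in the DTHIB libraries. Every DTHIB value was below every DMSO value, with DTHIB replicates 2 and 4 lowest. The mean went from 14913 ± 201 to 13550.3 ± 427 (SD, n = 4 each), or -0.14 on the log2 scale (SE 0.028, limma adjusted p = 0.00037). CS fell by 9.14%, the smallest difference among the 8 enzymes that fell. With a spline on transcript length and GC subtracted it stood at -0.09 and still passed.

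Isocitrate is oxidized to 2-oxoglutarate by separate mitochondrial enzymes. IDH2 (chr15:90083045-90102504) encodes the NADP-dependent one, a homodimer that can also run in reverse and that supplies mitochondrial NADPH. Its values were 9823, 10022, 10038 and 9439 normalized counts in DMSO and 6374, 5678, 6435 and 6086 in DTHIB. The gap between the groups was wider than the spread inside either. IDH2 went from 9831 ± 279 to 6143 ± 345 (SD, n = 4 each), or -0.68 on the log2 scale (SE 0.037, limma adjusted p = 5.5e-11). IDH2 fell by 37.5%, the largest fall of the 9.

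The NAD-dependent isocitrate dehydrogenase is the form usually assigned to the forward cycle, and it is built from a catalytic subunit, IDH3A, with the subunits IDH3B and IDH3G. IDH3A (chr15:78131498-78171949) stood at 2187, 2069, 2219.96 and 2140.4 normalized counts in DMSO and at 1645, 1491, 1645 and 1511 in DTHIB. It fell by 0.45 on the log2 scale (SE 0.040, limma adjusted p = 3.3e-08); in percent, IDH3A fell by 27.0%. IDH3B (chr20:2658395-2664219) stood at 2738, 2549, 2642 and 2582 in DMSO and at 2336, 2139, 2478 and 2228 in DTHIB, and its groups came close without overlapping. IDH3B fell by 12.7%, or -0.20 on the log2 scale (SE 0.042, limma adjusted p = 0.00055). IDH3G, which was not one of the 9, moved the other way: 1759, 1676, 1747 and 1786 in DMSO against 1859, 1919.84, 1962 and 1833 in DTHIB, a rise of 0.12 (limma adjusted p = 0.0066). So the 3 subunits of 1 enzyme were ordered from a fall to a rise. Quantile normalization brought IDH3B to -0.11 and IDH3G to 0.21, and both still passed. IDH3G shares 278 exon bases with SSR4 on the opposite strand, a subunit of the translocon-associated complex that rose by 0.47 (limma adjusted p = 1.5e-09). No source used here says whether counting used strand, so reads of the overlapping stretch cannot be told apart. With the spline on length and GC subtracted, IDH3G no longer passed (log2 0.06, limma adjusted p = 0.139). IDH3A shares 2608 exon bases with ACSBG1 on the opposite strand, which had only 32.5 ± 2.88 normalized counts in DMSO and 17.6 ± 3.84 in DTHIB (SD, n = 4 each).

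The 2-oxoglutarate dehydrogenase complex turns 2-oxoglutarate into succinyl-CoA. OGDH (chr7:44606572-44709066) encodes its first, thiamine-dependent component. Its values were 8989, 8798, 8767 and 9037 normalized counts in DMSO and 7125, 7074, 7452 and 7111 in DTHIB. The means were 8898 ± 135 and 7191 ± 176 (SD, n = 4 each), or -0.31 on the log2 scale (SE 0.027, limma adjusted p = 3.5e-08). The components DLST and DLD also fell. DLST, the succinyltransferase that carries lipoate, went from 5916 ± 58.2 to 4946 ± 91.1 (log2 -0.26, limma adjusted p = 2.3e-07). DLD, the dihydrolipoamide dehydrogenase that the pyruvate dehydrogenase complex also uses, went from 16027 ± 163 to 13471 ± 566 (log2 -0.25, limma adjusted p = 1.5e-06). DLST stood at -0.17 under quantile normalization and DLD at -0.13 with the length and GC spline subtracted, and both still passed. MRPS36, also named KGD4, an adaptor of the complex, had 409 ± 66.8 in DMSO and 391 ± 136 in DTHIB (SD, n = 4 each). It did not pass (log2 -0.11, limma adjusted p = 0.57), with overlapping groups. Its DTHIB values were 308, 374, 293 and 588, so replicate 4 raised both the mean and the SD.

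Succinyl-CoA ligase makes GTP or ATP in the cycle, depending on which beta subunit joins the shared alpha subunit SUCLG1. SUCLG1 (chr2:84423523-84460045) stood at 4145, 4323, 4288 and 4215 normalized counts in DMSO and at 3849.9, 3648, 3742 and 3803 in DTHIB. The groups were separate, and the log2 fold change was -0.17 (SE 0.029, limma adjusted p = 5.7e-05). It still passed at -0.09 under quantile normalization and at -0.07 with the spline subtracted. SUCLA2, the subunit of the ATP form, went from 2511 ± 62.0 to 2325 ± 84.1 (SD, n = 4 each; log2 -0.11, limma adjusted p = 0.0088). SUCLG2, the subunit of the GTP form, went from 6189 ± 61.9 to 5847 ± 334 (log2 -0.08, limma adjusted p = 0.0484). SUCLG2 was near the limit of the test. Under quantile normalization neither passed (SUCLA2 log2 -0.02, limma adjusted p = 0.518; SUCLG2 log2 0.00, limma adjusted p = 0.943), and without DTHIB replicate 2 SUCLG2 stood at log2 -0.05 (limma adjusted p = 0.182).

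Succinate dehydrogenase is both a cycle enzyme and respiratory complex II. SDHA (chr5:218241-256700), its flavoprotein subunit that oxidizes succinate, stood at 711, 676, 732 and 720.5 normalized counts in DMSO and at 561, 586, 636 and 563 in DTHIB. The SDHA row fell by 0.28 on the log2 scale (SE 0.052, limma adjusted p = 0.00017), with no overlap between the groups. SDHA has near-identical pseudogene copies, and no source used here says how multi-mapped reads were counted, so this fall is uncertain. SDHAP1 rose from 457 ± 26.4 to 557 ± 54.7 (SD, n = 4 each; limma adjusted p = 0.0016), and SDHAP3 rose from 194 ± 17.5 to 313 ± 37.0 (limma adjusted p = 5.2e-06). SDHA summed with its pseudogenes went from 1361 ± 6.22 to 1456 ± 99.1, a log2 difference of 0.09, which is opposite in sign to that of SDHA alone. Of the other subunits, SDHD, a membrane anchor, fell from 4039 ± 47.1 to 3302 ± 132 (log2 -0.29, limma adjusted p = 4.8e-07). SDHB, the iron-sulfur subunit, fell from 3442 ± 31.3 to 3037 ± 212 (log2 -0.18, limma adjusted p = 0.00093; -0.11 under quantile normalization, still past the threshold). SDHC, the other anchor, had 6768 ± 169 in DMSO and 6497 ± 151 in DTHIB and did not pass (log2 -0.06, 95% interval -0.12 to 0.00, limma adjusted p = 0.0822). SDHC passed without DTHIB replicate 1 (limma adjusted p = 0.0342).

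Fumarase, encoded by FH (chr1:241497603-241519761), hydrates fumarate to malate and has a cytosolic as well as a mitochondrial form. Its values were 9163, 9339, 9471 and 8961 normalized counts in DMSO and 7104, 6377, 7067 and 6695 in DTHIB. The 4 DTHIB libraries lay well below the 4 DMSO libraries, with DTHIB replicate 2 lowest. FH went from 9234 ± 221 to 6811 ± 343 (SD, n = 4 each), or -0.44 on the log2 scale (SE 0.034, limma adjusted p = 6.9e-09). FH fell by 26.2%.

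Mitochondrial malate dehydrogenase, encoded by MDH2 (chr7:76048051-76067508), closes the cycle by making oxaloacetate and also serves the malate-aspartate shuttle. It stood at 18362, 18499, 18909.7 and 18802 normalized counts in DMSO and at 19135, 17759, 19721 and 18617 in DTHIB. The DTHIB libraries lay on both sides of the DMSO libraries. The log2 fold change was 0.01 (SE 0.031, 95% interval -0.05 to 0.08, limma adjusted p = 0.757).

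**Figure D2:**
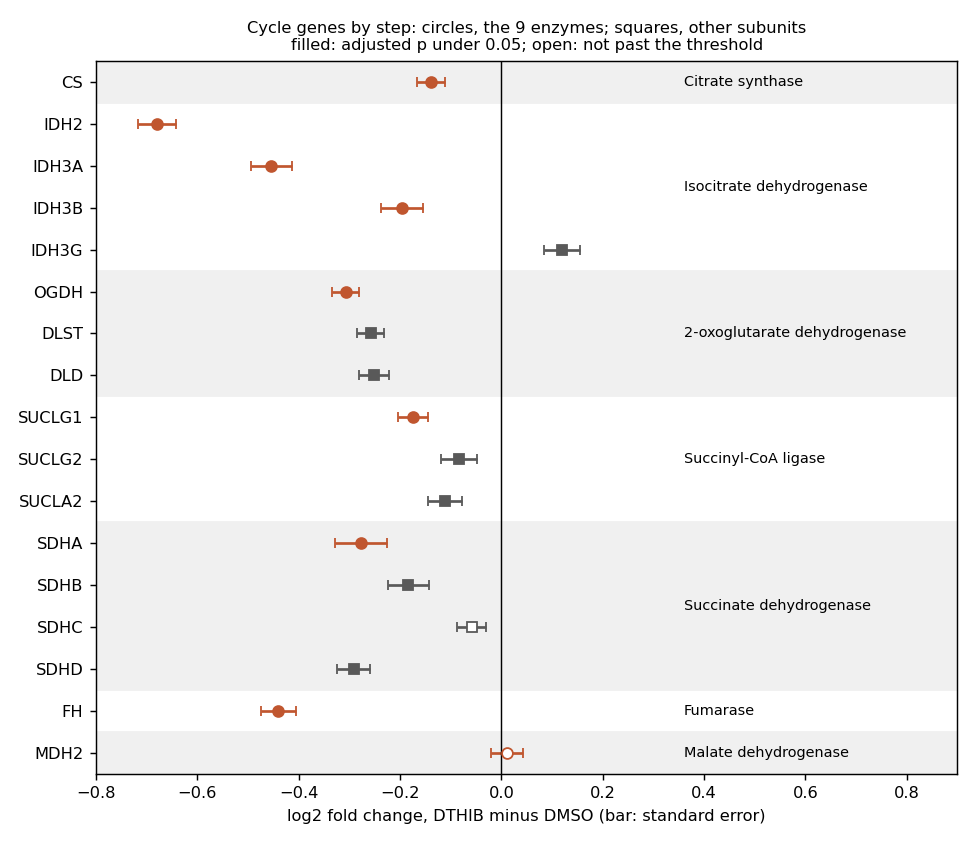
Log2 fold change (DTHIB minus DMSO, limma, bars show the standard error) of 17 cycle genes in the order of the reactions. Circles are the 9 enzymes and squares the other 8 subunits, and open symbols did not pass an adjusted p of 0.05. IDH2 is lowest at -0.68, IDH3G is the 1 gene that rose, and SDHC and MDH2 are open.

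Among the other 8 cycle subunits 6 fell, 1 rose and 1 did not pass the test, with a median log2 fold change of -0.15, beside 33.7% of all tested genes lower and 31% higher. Under quantile normalization 4 were lower and 1 higher, with a median of -0.07, and with the length and GC spline subtracted 5 were lower and 0 higher. Over all tested genes, quantile normalization gave 5164 lower and 5610 higher, and the spline 5605 lower and 5434 higher. Over these 17 cycle genes 14 fell, 1 rose and 2 did not pass. The 9 enzymes took 0.241% ± 0.00155 of all counted reads in DMSO libraries and 0.211% ± 0.00559 in DTHIB libraries (SD, n = 4 each). The DMSO shares ran from 0.239% to 0.242% and the DTHIB shares from 0.204% to 0.217%, so they did not overlap. DTHIB replicate 2 was the lowest DTHIB library for 8 of the 9 enzymes and for 12 of the 17 cycle genes. Without it 8 enzymes still fell, with IDH2 at -0.64 and FH at -0.41. In the authors' deposited table the log2 fold changes of the 17 genes differed from those given here by at most 0.00418, and SUCLG2 had an adjusted p of 0.0596 there.

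Levels of different genes were compared as normalized counts per kilobase of merged exons. In DMSO the order ran from MDH2 (5120.3) through FH (4311), IDH2 (3493), CS (2329) and OGDH (1708) to IDH3B (1024), SUCLG1 (989.9), IDH3A (315) and SDHA (84.7). IDH3B, at 993 to 1067, and SUCLG1, at 967 to 1009, overlapped over the 4 libraries, and no other neighbours did. In DTHIB the order of these means was the same. The levels of IDH2 (2018 to 2287) and CS (2058 to 2177) then overlapped, as did IDH3B (833 to 965) and SUCLG1 (851 to 898). Merged exons reach 8.383 kb for SDHA and 6.832 kb for IDH3A, longer than most single transcripts, which lowers their per-kilobase level. The place of SDHA is also uncertain because of its near-identical pseudogene copies. SDHAP1 had 457 and SDHAP3 had 194 normalized counts in DMSO, and how multi-mapped reads were counted is not known.

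Ratios of 2 genes within a library do not depend on the scaling between libraries, and 10 were compared. The ratio of IDH2 to its cytosolic counterpart IDH1 was 0.643, 0.670, 0.623 and 0.614 in DMSO and 0.287, 0.268, 0.292 and 0.288 in DTHIB. All DTHIB ratios were less than any DMSO ratio, a log2 difference of -1.17. IDH1 itself rose from 15438 ± 484 to 21629 ± 549 normalized counts (SD, n = 4 each; log2 0.49, limma adjusted p = 2.5e-10). MDH2 to MDH1, the mitochondrial against the cytosolic malate dehydrogenase, went from 3.17 ± 0.0857 to 3.95 ± 0.125, as MDH1 fell from 5889 ± 113 to 4756 ± 143 (log2 -0.31, limma adjusted p = 9.2e-08). Within NAD-dependent isocitrate dehydrogenase, IDH3A to IDH3B went from 0.820 ± 0.0184 to 0.686 ± 0.0184 and IDH3A to IDH3G from 1.24 ± 0.0297 to 0.831 ± 0.0445. IDH2 to IDH3A went from 4.57 ± 0.191 to 3.91 ± 0.0924. The groups did not overlap for these 5 ratios. Each gave p = 0.0286 in an exact two-sided permutation test, the smallest that 70 arrangements allow, and 0.0571 after Benjamini-Hochberg adjustment over the 10, so none passed 0.05. Without DMSO replicate 1, or without DTHIB replicate 3, the adjusted p of each of the 5 was 0.0476. Their exact permutation p was still the smallest possible, 0.0286. The adjusted p moved only because another ratio, CS to ACLY or OGDH to DLST, reached that limit too. It therefore adds nothing about the 5. The other 5 overlapped between groups: SDHA to SDHB (log2 difference -0.09), SUCLG1 to SUCLA2 (-0.06), SUCLA2 to SUCLG2 (-0.03), OGDH to DLST (-0.05) and CS to ACLY (-0.06). Their exact permutation p ran from 0.0571 for OGDH to DLST and CS to ACLY up to 0.486 for SUCLA2 to SUCLG2. The ratio of SDHA to SDHB carries the same uncertainty as the SDHA row. That of IDH3A to IDH3G carries the uncertainty of the IDH3G row, which shares 278 exon bases with SSR4. The rise of IDH3G also did not pass with the length and GC spline subtracted.

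**Figure D3:**
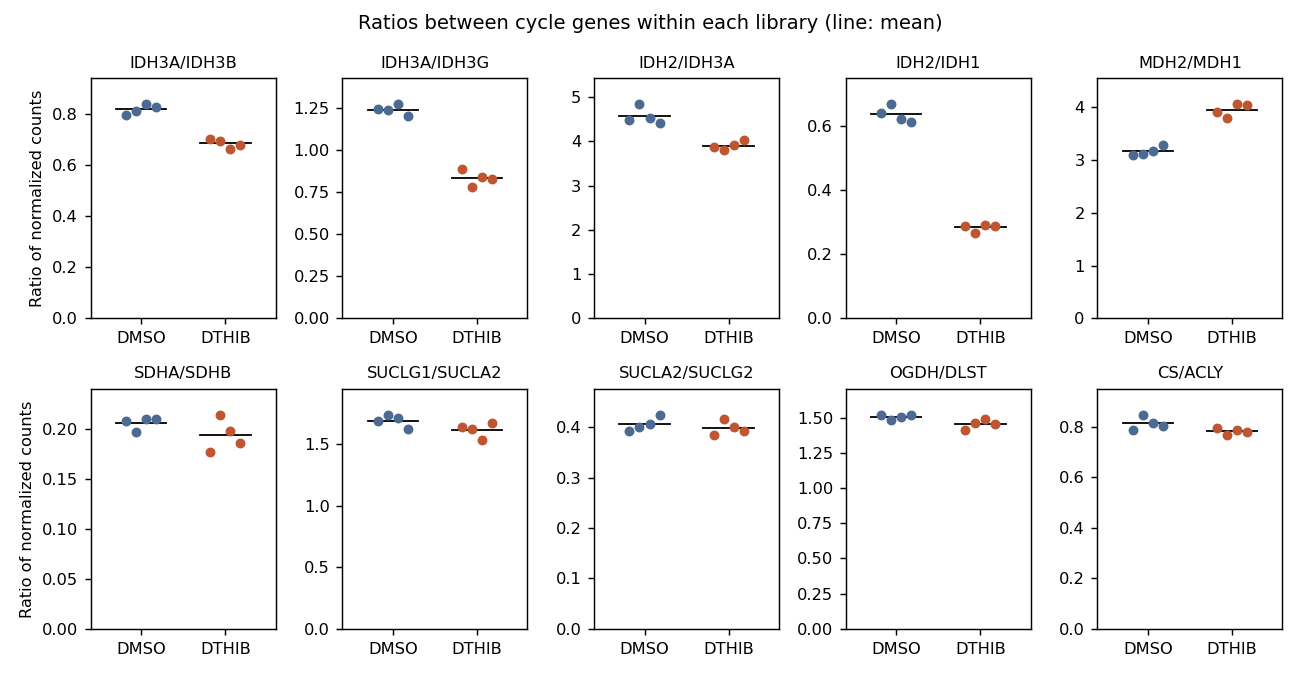
Ratio of normalized counts in each of the 4 DMSO (blue) and 4 DTHIB (orange) libraries. Each ratio is between 2 cycle genes or between a cycle gene and IDH1, MDH1 or ACLY. Lines are means and axes start at 0. The upper row holds the 5 ratios whose groups do not overlap, among them IDH2/IDH1 with means of 0.637 and 0.284.

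Pyruvate entry genes feed the cycle with acetyl-CoA. Of the 12 tested of 13, 7 fell, 2 rose and 3 did not pass (median log2 -0.22), beside the 33.7% of all tested genes that fell and the 31% that rose. The median was -0.12 with the length and GC spline subtracted, with the same number of falls and rises. PDK3, a kinase that shuts off pyruvate dehydrogenase, fell from 2544 ± 66.9 to 1426 ± 35.7 normalized counts (SD, n = 4 each; log2 -0.83, limma adjusted p = 1.2e-12). The components of the pyruvate dehydrogenase complex fell too: DLAT (log2 -0.43), the acetyltransferase core, PDHX (-0.28), which binds DLD to that core, and PDHA1 (-0.27), the catalytic alpha subunit. MPC2, a subunit of the mitochondrial pyruvate carrier, fell by 0.21. The 2 rises were PDK1 (0.18), another inhibitory kinase, and PDPR (0.30), a regulator of the phosphatase that reactivates the complex. The kinase PDK4 had 18 reads in all 8 libraries and was not tested.

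Genes of anaplerosis and glutamate exchange split. Of 9 tested of 10, 7 rose and 2 fell (median log2 0.24), beside 31% of all tested genes higher and 33.7% lower. PCK2, the mitochondrial phosphoenolpyruvate carboxykinase that draws on oxaloacetate, rose from 4887 ± 227 to 13453 ± 317 normalized counts (SD, n = 4 each; log2 1.46, limma adjusted p = 1.3e-15). PCK2 has transcripts outside the primary assembly in GENCODE release 29, and no source used here says whether those were part of the alignment. GPT2, the mitochondrial alanine aminotransferase, which exchanges glutamate for 2-oxoglutarate, rose from 4603 ± 178 to 9869 ± 96.0 (log2 1.10, limma adjusted p = 1.1e-14). GOT2, the mitochondrial aspartate aminotransferase, fell from 9367 ± 206 to 7399 ± 289 (log2 -0.34, limma adjusted p = 4.9e-08). D2HGDH, the dehydrogenase that returns D-2-hydroxyglutarate to 2-oxoglutarate, rose by 0.49.

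Citrate export genes and cytosolic counterparts also moved both ways. Of 14 tested of 15, 9 fell, 4 rose and 1 did not pass (median log2 -0.15), beside 33.7% of all tested genes lower and 31% higher. Their summed level was 74088 to 76750.3 normalized counts in DMSO and 76603 to 79300.3 in DTHIB. That sum is weighted to high genes such as IDH1, whose mean went from 15438 to 21629, and does not follow the median. Besides IDH1, the rises included ANKH, a membrane protein linked to citrate and ATP release, from 4617 ± 107 to 6177 ± 117 (SD, n = 4 each; log2 0.42, limma adjusted p = 1.0e-09), and GPT, the cytosolic alanine aminotransferase, from 300.02 ± 18.6 to 630 ± 67.3 (log2 1.06). SLC25A10, the dicarboxylate carrier of malate and succinate, fell from 1625 ± 57.2 to 1106 ± 26.2 (log2 -0.55, limma adjusted p = 1.1e-09). SLC25A11, which exchanges malate for 2-oxoglutarate in the malate-aspartate shuttle, fell by 0.35. SLC25A1, the mitochondrial citrate carrier, fell from 5493 ± 80.8 to 4453 ± 94.0 (log2 -0.30, limma adjusted p = 5.1e-08), opposite in sign to ANKH. The citrate importer SLC13A5 was at 0 in every library.

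Cofactor and assembly genes gave 7 falls, 2 rises and 6 genes that did not pass, of 15 (median log2 -0.13), beside 33.7% of all tested genes lower and 31% higher. Under quantile normalization 6 were lower and 5 higher, and with the length and GC spline subtracted 6 were lower and 3 higher, with a median of -0.07. The all-gene calls were then 5164 lower and 5610 higher under quantile normalization, and 5605 lower and 5434 higher with the spline. The falls with the smallest adjusted p were ISCA1 (log2 -0.43), NFU1 (-0.46) and BOLA3 (-0.41), which serve iron-sulfur clusters used for lipoate synthesis among others. LIPT1, a lipoyltransferase of the dehydrogenase complexes, rose by 0.47, and SDHAF4, an assembly factor for SDHA, by 0.38. Regulators of mitochondrial biogenesis gave 8 falls, 2 rises and 4 that did not pass, of 14 (median log2 -0.11), beside the same shares of all tested genes. This list depended on the scaling: under quantile normalization 4 were lower and 3 higher, with a median of -0.02, and with the length and GC spline subtracted 6 were lower and 3 higher, with a median of -0.05. LONP1, the matrix protease, rose from 9269 ± 134 to 13840.1 ± 321 normalized counts (SD, n = 4 each; log2 0.58, limma adjusted p = 6.7e-12), and the deacetylase SIRT3 rose by 0.21. TFAM, which packages and transcribes mitochondrial DNA, fell from 2628 ± 52.2 to 2042 ± 73.6 (log2 -0.36, limma adjusted p = 5.8e-08). PPARGC1A, the coactivator PGC-1alpha, was low and fell from 55.5 ± 6.12 to 21.6 ± 3.44 (log2 -1.33, limma adjusted p = 4.8e-06). ESRRA, a nuclear receptor partner of that coactivator, fell by 0.16.

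**Figure D4:**
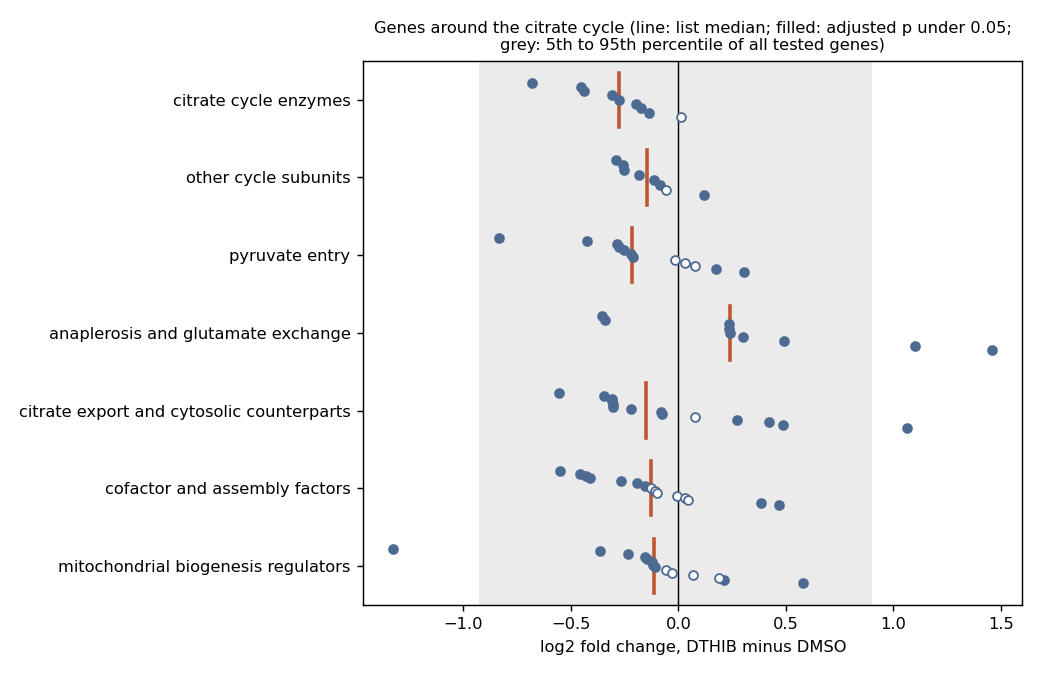
Log2 fold change (DTHIB minus DMSO, limma) of each tested gene in the citrate cycle and 6 lists around it; filled points passed an adjusted p of 0.05, vertical lines are list medians and grey is the 5th to 95th percentile of all tested genes. The 9 enzymes have a median of -0.28, and anaplerosis and glutamate exchange is the list with a median above 0, at 0.24.

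The libraries held 29499458 to 30926053 counted reads in DMSO and 27229291 to 29159387 in DTHIB, and correlated across genes with Pearson r of 0.993 to 0.994 within a group and 0.973 to 0.981 between groups. All 7 luminal prostate markers used, which include KLK3 and FOLH1, were expressed; 4 rose and 3 fell, and their summed level was 157423 to 160022 normalized counts in DMSO and 194974 to 199857 in DTHIB. Stromal markers summed to 1762 to 2017 in DMSO and 2041 to 2246 in DTHIB, with 4 of 7 tested, 1 higher and 1 lower, and the stromal genes DCN and LUM at 0 in DMSO and at 3 and 2 reads in all. Blood cell markers summed to 41.5 to 53.6 in DMSO and 29.9 to 51.9 in DTHIB, with 3 of 7 tested, 1 lower, and HBB at 0. The sums follow their highest genes: KLK3 alone went from 66683 ± 643 to 93753 ± 1168 (SD, n = 4 each). Among stromal markers the rise was COL1A1, from 962 ± 39.2 to 1290 ± 102, and the fall was ACTA2, from 77.6 ± 23.0 to 39.0 ± 4.06. The luminal and stromal sums were higher in every DTHIB library than in any DMSO library, while each of these lists held both rises and falls. The part of these changes in the results above was not tested.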

How the data were processed

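RNA-seq of C4-2 cells (4 DTHIB, 4 DMSO) was compared by the treatment in the labels. The submitters' processing notes name the build GRCh38 and the tools HISAT2 2.1.0, featureCounts 1.6.3, DESeq2 2.11.40.2, StringTie 1.3.4 and Trimmomatic 0.36.5; no source used here gives their order, settings, annotation or strand. The signal the authors deposited is, by its column names, featureCounts gene counts divided by a DESeq2 size factor. The authors also deposited a log2 fold change, its standard error and Wald score, and a p-value and adjusted p-value per gene.

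Values were log2(normalized count + 1), a scale that understates changes of low genes. They were fitted with limma 3.58.1 (R 4.3.3, lmFit, two-sided, eBayes with a trend on expression). The fit covered the 17194 genes of mean 10 or more, adjusted by Benjamini-Hochberg over all of them, threshold 0.05. A check on simulated counts used known library scaling and far fewer changed genes than were called here. It therefore does not test the calls at this share of changed genes. Whole reads were recovered from the steps between values (100% whole within 0.01) for edgeR 4.0.16, which called 11130 genes, and DESeq2 1.42.0. Symbols were matched for 58472 of 58884 identifiers and GENCODE release 29 positions for 58611; KGD4 was matched as MRPS36.

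The members and lists were chosen with earlier results of these data known. Some genes of the lists are not reported here and were left out of their counts. Named were the 9 enzymes and 8 other subunits, and in each list up to 5 tested genes with the smallest adjusted p. The 5 genes with the nearest profile were named too. MDH1, MRPS36, PDK1, PDPR, SLC25A1, pseudogenes and overlapping genes were added after their values were seen. Alternatives were other pseudocounts, filters and scalings, edgeR, DESeq2, the replicate number as a block, and each library left out; added after seeing the data were removal of a length and GC trend (splines) and SDHA summed with its pseudogenes. The chi-square per gene between replicates was 2.39 to 5.21, so none agreed within sampling noise.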

Additional observations from a re-analysis of the deposited data

Results flagged for a closer look

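Single libraries stood apart from the other 3 of their group in 4 of 34 groups of 4 (17 cycle genes in 2 treatments), by Dixon's test at 95%; chance gives about 1 in 20. OGDH was highest in DTHIB replicate 3, at 7452 normalized counts against 7074 to 7125 in the others. SDHB was highest in DMSO replicate 3, at 3489 against 3421 to 3432. SDHC was highest in DMSO replicate 4, at 7020.3 against 6656 to 6699, and in DTHIB replicate 1, at 6724 against 6408 to 6435. OGDH and SDHB still fell without those libraries, while SDHC passed without DTHIB replicate 1 (limma adjusted p = 0.0342) and not without DMSO replicate 4.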

How the results depend on the processing

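The count of enzymes called stayed at 8, all lower, in each of the 18 alternatives that refit all genes, and each library left out gave 8 to 8; the added sum of SDHA with its pseudogenes, which has no test, turned SDHA to 0.094. All-gene calls were 11110, with 9483 to 11557 under other settings (10367 to 10893 with a library left out). Among the 17 cycle genes, calls ended or appeared for SUCLG2, SUCLA2, IDH3G and SDHC. In the lists, calls among other members changed too: over the 18 alternatives falls ran from 4 to 7 for the other cycle subunits, 7 to 8 for pyruvate entry, 1 to 2 for anaplerosis, 7 to 9 for citrate export, 6 to 8 for cofactors and 4 to 8 for biogenesis regulators. SUCLG2 lost its call in 12 of 18. With the length and GC trend removed SUCLA2 turned to 0.014 (limma adjusted p = 0.709) and SUCLG2 to 0.034 (limma adjusted p = 0.365), and SDHC was called at -0.15. Falls shrank by more than 1.5 times but stayed called for CS (-0.09), SUCLG1 (-0.07), PDHX (-0.18), MPC2 (-0.11), SSB (-0.16) and DLD (-0.13) with that trend removed, and for IDH3B (-0.11), SUCLG1 (-0.09), SDHB (-0.11), DLST (-0.17) and ESRRA (-0.07) under quantile normalization. Without DMSO replicate 1 or without DTHIB replicate 3, each of the 5 separate ratios had an exact permutation adjusted p of 0.0476, as did CS to ACLY in the former case and OGDH to DLST in the latter. The unadjusted p of the 5 stayed at the smallest possible, so only the added ratio moved the adjusted p. The causes were not tested.

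Replicate numbers did not pair the libraries: same-numbered libraries correlated at -0.07 to 0.01, and 1 of 4 DMSO libraries correlated best with its own number. With the replicate number as a block, 11058 genes and 8 enzymes were called. At this depth counting error is small for all 9 enzymes and largest for SDHA.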

Other observations

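Outside the lists, the 5 tested genes whose centred log2 profile over the 8 libraries came nearest to the mean profile of the 9 enzymes were TBL3, PPP2R5A, LMNA, TPI1 and SSB. Their root mean square differences from it were 0.0126, 0.0143, 0.0154, 0.0159 and 0.0166 on the log2 scale. TBL3, a component of the ribosome small-subunit processome, fell from 1749 ± 21.7 to 1425 ± 47.7 normalized counts (SD, n = 4 each). LMNA, which encodes lamins A and C, fell from 5068 ± 87.3 to 4141 ± 178, and TPI1, the glycolytic triosephosphate isomerase, from 23235 ± 339 to 18743 ± 892. The 5 log2 fold changes ran from -0.31 to -0.29. With 2 groups, such a likeness mostly records a fall of the same size.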
